A study of Mus musculus with 18 samples.

Results

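The 10 genes described here are 6 Eph receptors (Epha1, Epha2, Epha4, Ephb2, Ephb3 and Ephb4) and 4 ephrins, their ligands (Efna1, Efna4, Efnb1 and Efnb2). They were picked by symbol from the 55453 gene names of the count tables, and all 10 were among the 20787 genes that passed the filter on low counts. RNA-Seq was performed on laser-microdissected colonic epithelium of female Swiss Webster mice that had all received the carcinogen azoxymethane (AOM) at 7 weeks of age and 4 cycles of dextran sulfate sodium (DSS), an agent that injures the colonic lining. Each DSS cycle, the first at 9 weeks of age, was 7 days of 2% DSS and 14 days of plain water. From 11 weeks of age, chow with the basal 2 mg/kg folic acid (FA) was replaced by chow with 0 or 8 mg/kg FA for 16 weeks, until the end of the study at 27 weeks. Non-dysplastic epithelium gave the groups 0ND (0 mg/kg FA, n = 4) and 8ND (8 mg/kg FA, n = 5), and polypoid dysplasia gave the groups 0P (n = 4) and 8P (n = 5). All mice were colitic, so no group shows the gene levels of a healthy colon, and the labels do not tie an ND library to a P library of the same mouse.

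Eph receptors are the largest family of receptor tyrosine kinases and bind ephrins on the surface of neighboring cells, so that signals run into both the receptor cell and the ephrin cell. Class A ephrins are tethered to the membrane by a lipid anchor and class B ephrins span it. In the intestinal crypt, EphB2 and EphB3 are Wnt targets of the crypt base, ephrin-B1 and ephrin-B2 lie toward the crypt top, and the repulsion between them keeps dividing and differentiated cells in place.

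Libraries held 3500947 to 17048524 counts on genes (median 10292934), of which 1357 to 6864 were on the 10 genes, with the fewest in 8ND 4. Levels of single genes are given as CPM, read counts scaled to a common library size with TMM factors. Summed levels of the marker and crypt gene lists are CPM of the raw library totals, without TMM factors. A level compared between genes is divided by the kilobases of annotated exon. Epithelial markers were high in every group, with summed levels of the 8 genes from Epcam to Lgals4 at 3528 to 4617 CPM in 0ND, 2885 to 4034 in 0P, 3149 to 4618 in 8ND and 2730 to 3320 in 8P. Of these 8, 1 rose and 3 fell in 0P vs 0ND, and 1 rose and 5 fell in 8P vs 8ND. Of all genes tested, 15.9% rose and 15.7% fell in 0P vs 0ND, and 13.9% rose and 14.3% fell in 8P vs 8ND. All these calls are at an edgeR adjusted p under 0.05. The part of the epithelial marker shift in the values below was not tested. Markers of other cell types were present too. The 6 smooth muscle markers summed to 999.6 to 2537 CPM in 0ND and 357 to 708 CPM in 0P, and to 1004 to 1725 CPM in 8ND and 256 to 597 CPM in 8P, with all 6 lower in dysplasia at an edgeR adjusted p under 0.05 on both diets. In such bulk libraries, fewer cells of a type and less RNA per cell cannot be told apart. Among non-dysplastic libraries, 8ND 1 and 8ND 2 lay closest to dysplasia on the first principal component.

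The promoters of 3 genes are shown because these genes carry main contrasts below, a receptor for ephrin-A1 (Epha2), the crypt base receptor (Ephb2) and a ligand that fell (Efnb2). Each is the 250 bases before the RefSeq start site on GRCm38.p6, 5′ to 3′ on the strand of the gene. Capitals mark the matches to 3 searched motifs on either strand, CTTTGA for TCF/LEF factors, TGANTCA for AP-1 and CCGGAA for ETS factors.
Epha2, chr4:141300971-141301220, plus strand: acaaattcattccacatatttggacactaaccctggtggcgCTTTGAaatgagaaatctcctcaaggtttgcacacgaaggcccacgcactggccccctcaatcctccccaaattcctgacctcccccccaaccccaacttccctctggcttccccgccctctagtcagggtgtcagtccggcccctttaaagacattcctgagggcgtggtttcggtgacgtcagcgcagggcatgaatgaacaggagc
Ephb2, chr4:136836013-136836262, minus strand: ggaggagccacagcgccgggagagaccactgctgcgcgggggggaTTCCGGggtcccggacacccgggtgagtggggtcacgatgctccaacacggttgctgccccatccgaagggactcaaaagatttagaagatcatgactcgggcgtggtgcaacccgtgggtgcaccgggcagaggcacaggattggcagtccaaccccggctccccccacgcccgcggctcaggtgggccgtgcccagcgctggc
Efnb2, chr8:8661243-8661492, minus strand: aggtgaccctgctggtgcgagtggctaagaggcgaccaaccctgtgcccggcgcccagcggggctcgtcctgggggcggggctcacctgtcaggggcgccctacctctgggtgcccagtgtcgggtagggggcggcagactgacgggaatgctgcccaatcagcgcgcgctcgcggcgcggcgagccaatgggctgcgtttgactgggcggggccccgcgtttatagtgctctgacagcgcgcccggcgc
In Epha2 the CTTTGA match began 209 bases before the start site, and in Ephb2 the capitals are the CCGGAA motif read on the opposite strand, beginning 205 bases before the start. None of the 3 motifs matched in the windows of the other 8 genes. Among 32851 mouse promoters of the same length, 13.8% held CTTTGA, 6.75% TGANTCA and 12% CCGGAA, so a match or its absence in a window of this length is common. Efnb2 had the most GC-rich window of the 10 genes, at 72% G and C, and the lowest, at 54.4%, belonged to Epha1 and Efna4 (median of all promoters 52.4%).

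The first question was which family members differed between polypoid dysplasia and non-dysplastic epithelium on each diet. Of the 6 receptors, 4 rose in 0P vs 0ND, and 3 rose and 1 (Epha1) fell in 8P vs 8ND. Efna1, Efnb1 and Efnb2 fell on both diets and Efna4 rose on both. In 0P vs 0ND, 8 of the 10 genes (80.0%) passed an adjusted p of 0.05 against 31.6% of all genes tested, 5 higher and 3 lower (15.9% and 15.7% of all genes). In 8P vs 8ND, 8 of the 10 passed against 28.2% of all genes, 4 higher and 4 lower (13.9% and 14.3% of all genes). The 10 genes were chosen with earlier results of these data known, so these shares are not a blind test of the family. Of the 8 other family genes tested, 1 passed in 0P vs 0ND and 2 in 8P vs 8ND. The 2 comparisons share no library. All 10 genes had the same direction in both, as did 75.5% of all genes, and 6 genes passed in the same direction in both (Epha2, Ephb2, Efna1, Efna4, Efnb1 and Efnb2), as did 19.9% of all genes. CPM ranges of the groups did not overlap for 8 genes in 0P vs 0ND, where this held for 32.3% of all genes, and for 5 genes in 8P vs 8ND, where it held for 17.2%.

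**Figure D1:**
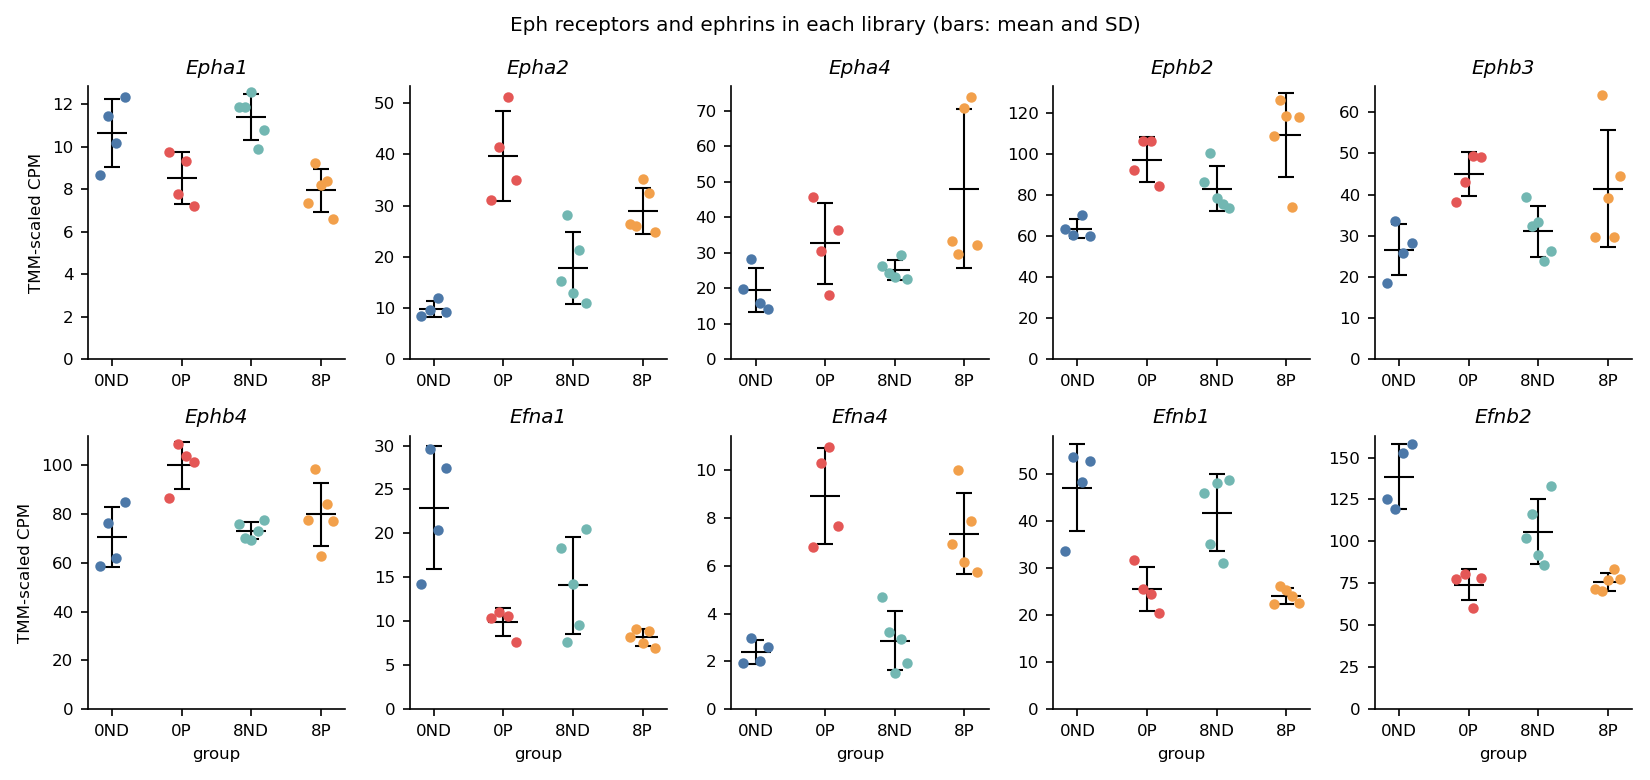
TMM-scaled CPM of the 10 genes (vertical axes, linear from 0, each gene with its own scale) in the libraries of 0ND, 0P, 8ND and 8P (horizontal axes), with 1 point per library and black bars for the group mean and SD. Epha2, Ephb2 and Efna4 have higher means in the dysplasia groups and Efna1, Efnb1 and Efnb2 lower ones. The 8ND and 8P points overlap for Epha2, Ephb2 and Efna1. In 8P the points of Epha4 split, with 2 libraries above 70 CPM and 3 near 30 CPM.

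Among EphA receptors, Epha2 (chr4:141301240-141329384 on mm10, plus strand) encodes a receptor of ephrin-A1 that is overexpressed in many carcinomas. Its CPM was 8.48, 9.52, 11.96 and 9.31 in 0ND replicates 1 to 4 and 31.2, 41.5, 51.2 and 35.0 in 0P replicates 1 to 4. On 8 mg/kg FA, CPM was 15.3, 28.1, 12.9, 21.4 and 11.0 in 8ND replicates 1 to 5 and 26.4, 25.9, 35.1, 32.4 and 24.9 in 8P replicates 1 to 5. Every 0P library was above every 0ND library, whereas 8ND 2 lay within the 8P range. Epha2 rose 4.04-fold in 0P vs 0ND, a log2 fold change of 2.02 ± 0.25 (SE, edgeR adjusted p = 8.23e-06). In 8P vs 8ND it rose 1.63-fold, a log2 fold change of 0.71 ± 0.21 (SE, edgeR adjusted p = 0.0170). That second call was lost without 8ND 3 or without 8ND 5 (edgeR adjusted p = 0.0513 and 0.0511).

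Epha4 (chr1:77367185-77515088, minus strand) encodes a receptor that binds ephrins of both classes. Its CPM was 19.8, 28.2, 15.9 and 14.2 in 0ND and 45.6, 30.4, 18.1 and 36.3 in 0P. On the FA diet, CPM was 26.4, 24.4, 23.1, 29.4 and 22.5 in 8ND and 33.3, 29.7, 70.9, 73.9 and 32.1 in 8P, in replicate order as for all genes below. The 0 mg/kg groups overlapped through 0P 3, and 8P 3 and 8P 4 stood far above the other 8P libraries, all of which were above 8ND. In 8P vs 8ND the log2 fold change was 0.94 ± 0.28 (SE, edgeR adjusted p = 0.0188), and the edgeR adjusted p became 0.0577 without 8P 3, 0.0622 without 8P 4, 0.0649 without both 8ND 1 and 8ND 2 and 0.0528 without the filter on low counts. In 0P vs 0ND it was 0.76 ± 0.32 (SE, edgeR adjusted p = 0.0814), and the call was gained without 0ND 2 (0.0384) or 0P 3 (0.0260).

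Epha1 (chr6:42358487-42373268, minus strand), which encodes a receptor of epithelia, went the other way. Its CPM was 8.67, 11.5, 10.2 and 12.3 in 0ND and 9.77, 7.77, 9.33 and 7.22 in 0P, with overlap. With 8 mg/kg FA it was 11.9, 11.9, 12.6, 9.88 and 10.8 in 8ND and 7.34, 9.25, 8.20, 8.37 and 6.59 in 8P, and each 8P library was below each 8ND library. Epha1 fell in 8P vs 8ND, with a log2 fold change of −0.53 ± 0.15 (SE, edgeR adjusted p = 0.0112), and had a log2 fold change of −0.32 ± 0.16 (SE, edgeR adjusted p = 0.148) in 0P vs 0ND. Without the filter on low counts the adjusted p in 8P vs 8ND was 0.0993, and without both 8ND 1 and 8ND 2 it was 0.0569. At its 3′ end Epha1 shares 236 exon bases with Zyx on the opposite strand. Zyx had log2 fold changes of 0.15 in 0P vs 0ND and −0.14 in 8P vs 8ND (edgeR adjusted p = 0.640 and 0.631).

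All 3 EphB receptors rose in 0P vs 0ND, and Ephb2 alone of them passed in 8P vs 8ND. Ephb2 (chr4:136647539-136835988, minus strand) encodes the receptor of the crypt base, and its CPM was 63.5, 60.7, 70.3 and 59.9 in 0ND and 92.3, 106, 106 and 84.2 in 0P. For 8 mg/kg FA, CPM was 86.3, 101, 78.6, 75.8 and 73.6 in 8ND and 109, 126, 118, 74.3 and 118 in 8P. The 0 mg/kg groups did not overlap, and on 8 mg/kg FA only 8P 4 fell into the 8ND range. Ephb2 rose 1.53-fold in 0P vs 0ND, a log2 fold change of 0.61 ± 0.14 (SE, edgeR adjusted p = 0.00283). It rose 1.31-fold in 8P vs 8ND, a log2 fold change of 0.39 ± 0.13 (SE, edgeR adjusted p = 0.0267). This call was lost in 6 of 10 fits that left out 1 library, namely those without 8ND 3, 8ND 4, 8ND 5, 8P 2, 8P 3 or 8P 5, with adjusted p up to 0.0716 (without 8ND 5).

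Ephb3 (chr16:21204755-21223305, plus strand), the partner of EphB2 in cell sorting along the crypt, had a CPM of 18.6, 33.7, 25.8 and 28.4 in 0ND and 38.3, 43.0, 49.4 and 49.1 in 0P. In 8ND it was 39.5, 32.5, 33.3, 23.8 and 26.2 and in 8P 29.8, 64.1, 39.2, 29.7 and 44.5. All 0P libraries were above 0ND, but 8P ranged from within 8ND to the highest value of all, in 8P 2. Ephb3 rose in 0P vs 0ND, with a log2 fold change of 0.76 ± 0.23 (SE, edgeR adjusted p = 0.0136), and the adjusted p was 0.0534 without 0ND 1. The log2 fold change in 8P vs 8ND was 0.41 ± 0.20 (SE, edgeR adjusted p = 0.141), with a 95% interval of −0.01 to 0.83.

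Ephb4 (chr5:137350109-137378669, plus strand), the receptor of ephrin-B2 best known from veins, had a CPM of 58.6, 76.2, 62.2 and 85.0 in 0ND and 86.5, 109, 104 and 101 in 0P. For the FA diet it was 75.9, 70.3, 69.3, 72.9 and 77.5 in 8ND and 77.5, 98.3, 62.7, 84.0 and 77.2 in 8P. Each 0P library exceeded each 0ND library, the 0P 1 value by little, and 8P spread on both sides of the narrow 8ND range. Ephb4 rose in 0P vs 0ND, with a log2 fold change of 0.51 ± 0.13 (SE, edgeR adjusted p = 0.00633), and the log2 fold change in 8P vs 8ND was 0.13 ± 0.12 (SE, edgeR adjusted p = 0.463), with a 95% interval of −0.12 to 0.38. Ephb4 shares 33 exon bases at its 3′ end with Zan on the opposite strand, which had log2 fold changes of −2.72 and −2.34 (edgeR adjusted p = 8.24e-05 and 0.000147). The 6 endothelial markers summed to 124 to 185 CPM in 0ND, 126 to 161 in 0P, 119 to 157 in 8ND and 72.2 to 134 in 8P, with none at 0. In 0P vs 0ND 1 of them rose (Vwf) and 2 fell (Kdr and Emcn), and in 8P vs 8ND 2 fell (Pecam1 and Kdr). Their part in the Ephb4 values was not tested.

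**Figure D2:**
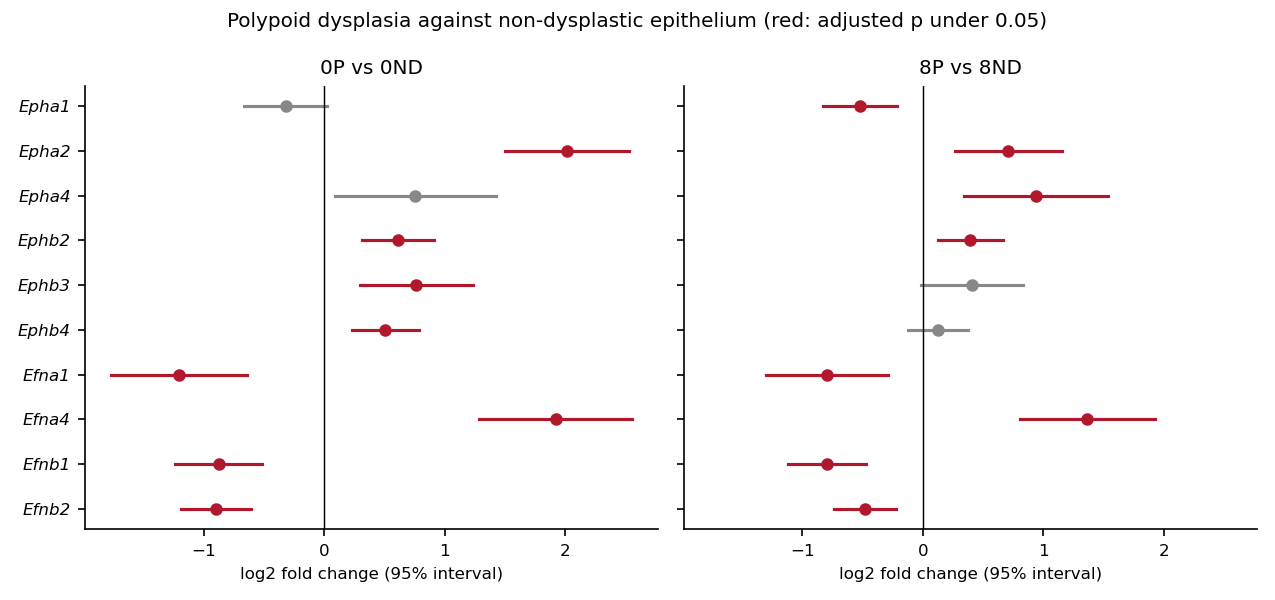
Log2 fold changes (horizontal axes) of the 10 genes (vertical axis) in 0P vs 0ND (left) and 8P vs 8ND (right), with points for the estimate, lines for its 95% interval and red for an edgeR adjusted p under 0.05. Epha2 (2.02) and Efna4 (1.92) lie farthest to the right in 0P vs 0ND, Efna1, Efnb1 and Efnb2 lie left of 0 on both diets, and Epha1 lies left of 0 with the test passed in 8P vs 8ND alone.

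The 2 class A ephrins moved in opposite directions. Efna1 (chr3:89271733-89281142, minus strand) encodes ephrin-A1, the main ligand of EphA2, and its CPM was 14.2, 29.6, 20.4 and 27.5 in 0ND and 10.4, 11.1, 10.6 and 7.59 in 0P. On 8 mg/kg FA, CPM was 18.4, 7.69, 14.3, 9.61 and 20.5 in 8ND and 8.24, 9.15, 7.47, 8.94 and 6.96 in 8P. No 0P library reached the 0ND range, while 8ND 2 lay within the 8P range and 8ND 4 just above it. Efna1 fell by 1.21 on the log2 scale in 0P vs 0ND (SE 0.27, edgeR adjusted p = 0.00191). In 8P vs 8ND it fell by 0.80 (SE 0.24, edgeR adjusted p = 0.0187), a call that was lost without 8ND 1 (0.0540) or 8ND 5 (0.0734).

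Efna4 (chr3:89333390-89338028, minus strand), which encodes ephrin-A4, lies near Efna1 on chromosome 3. It had 1.91, 3.00, 2.01 and 2.60 CPM in 0ND and 6.78, 10.3, 11.0 and 7.65 CPM in 0P. With FA there were 4.70, 3.25, 1.5, 2.94 and 1.95 CPM in 8ND and 6.90, 10.0, 6.17, 7.88 and 5.75 CPM in 8P. Neither pair of groups overlapped, although the level was low, with 88 counts over the 4 libraries of 0ND and 414 over those of 0P. Efna4 rose 3.79-fold in 0P vs 0ND, a log2 fold change of 1.92 ± 0.30 (SE, edgeR adjusted p = 8.98e-05), and 2.57-fold in 8P vs 8ND, a log2 fold change of 1.36 ± 0.27 (SE, edgeR adjusted p = 0.000867). Leaving out any 1 library of a comparison kept both calls. The antisense gene 4731419I09Rik shares 168 exon bases with it and had log2 fold changes of 0.87 and 0.32 (edgeR adjusted p = 0.0830 and 0.489).

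Both class B ephrins fell. Efnb1 (chrX:99136130-99148991, plus strand) encodes ephrin-B1, a ligand of EphB2 and EphB3, and had 33.7, 53.6, 48.2 and 52.8 CPM in 0ND and 31.8, 25.5, 24.4 and 20.5 CPM in 0P. With FA, CPM was 45.9, 35.1, 48.1, 31.0 and 48.8 in 8ND and 22.4, 26.2, 25.4, 24.1 and 22.5 in 8P. Dysplasia was below non-dysplastic epithelium in every library on both diets, closest between 0ND 1 and 0P 1. Efnb1 had a log2 fold change of −0.88 ± 0.17 (SE, edgeR adjusted p = 0.000594) in 0P vs 0ND and −0.80 ± 0.15 (SE, edgeR adjusted p = 0.000710) in 8P vs 8ND.

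Efnb2 (chr8:8617434-8661242, minus strand), whose promoter is printed above, encodes ephrin-B2, the ligand of EphB4. Its CPM was 125, 119, 152 and 158 in 0ND and 77.7, 80.3, 60.4 and 78.3 in 0P. On 8 mg/kg FA, CPM was 102, 117, 92.0, 85.7 and 133 in 8ND and 71.5, 70.3, 76.7, 83.8 and 77.7 in 8P. The groups did not overlap on either diet, with 8ND 4 nearest to 8P. Efnb2 had a log2 fold change of −0.90 ± 0.14 (SE, edgeR adjusted p = 6.41e-05) in 0P vs 0ND and −0.48 ± 0.12 (SE, edgeR adjusted p = 0.00623) in 8P vs 8ND. Leaving out any 1 library of a comparison kept the calls of both class B ephrins on both diets. Gene models without a known function lie within introns of Efnb2 on the same strand, among them E230020D15Rik, which had a log2 fold change of −1.17 in 0P vs 0ND (edgeR adjusted p = 9.37e-05) and −0.43 in 8P vs 8ND (edgeR adjusted p = 0.0585). The fall of the 6 smooth muscle markers given above moved with these ephrins, and its part in their values was not tested.

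Set against each other per kilobase of exon, the levels changed order between the tissues. In 0ND the highest was Efnb2 at 20.2 ± 2.83 CPM per kb, followed by Ephb4 (15.2), Efnb1 (13.6) and Efna1 (12.5), whose ranges overlapped from each to the next. The other 6 genes were lower, from Ephb2 at 5.04 ± 0.377 down to Epha2 at 2.10 ± 0.320 and Efna4 at 1.49 ± 0.320 CPM per kb, and the range of Ephb2 lay apart from that of Efna1. In 0P the order began with Ephb4 at 21.5 ± 2.05 CPM per kb, apart from Efnb2 at 10.8 ± 1.35. Epha2 came next in 0P, at 8.49 ± 1.87 CPM per kb, where its range overlapped with those of Efnb2 and of Ephb2 (7.71). In 8P Ephb4 was again apart at the top (17.2 ± 2.78), Efnb2 second (11.1) and Epha1 apart at the bottom (2.02 ± 0.260). In 8ND Ephb4 (15.8) and Efnb2 (15.4) overlapped at the top. The order depends on the merged exon lengths used, such as 12608 bases for Ephb2 and 4640 for Ephb4. Before division by length, their mean CPM in 0ND were 63.6 and 70.5.

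The ratio of summed EphB receptors to summed class B ephrins, per kb and within a library, was 0.731, 0.800, 0.632 and 0.713 in 0ND and 1.54, 2.01, 2.41 and 2.07 in 0P. It was 1.04, 1.03, 0.957, 1.18 and 0.789 in 8ND and 1.76, 2.29, 1.55, 1.48 and 1.83 in 8P. The dysplasia libraries were all above those of non-dysplastic epithelium on the same diet, and all 8ND libraries but 8ND 5 were above 0ND. For Epha2 over Efna1, the receptor and ligand of class A, the ratio was 0.18 ± 0.0593 in 0ND, 1.59 ± 0.330 in 0P, 0.638 ± 0.512 in 8ND and 1.40 ± 0.273 in 8P (SD). The ratio of Efna4 to Efna1 was 0.123 ± 0.0210 in 0ND and 1.04 ± 0.201 in 0P, and 0.271 ± 0.159 in 8ND and 1.02 ± 0.132 in 8P. Summed over all 10 genes, the level was 79.4 ± 11.2 CPM per kb in 0ND, 80.0 ± 4.11 in 0P, 73.9 ± 6.57 in 8ND and 73.4 ± 5.72 in 8P (SD), with overlapping ranges. These ratios restate the values of the single genes and carry no test of their own. Whether a ratio lies above or below 1 also depends on the exon lengths used.

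**Figure D3:**
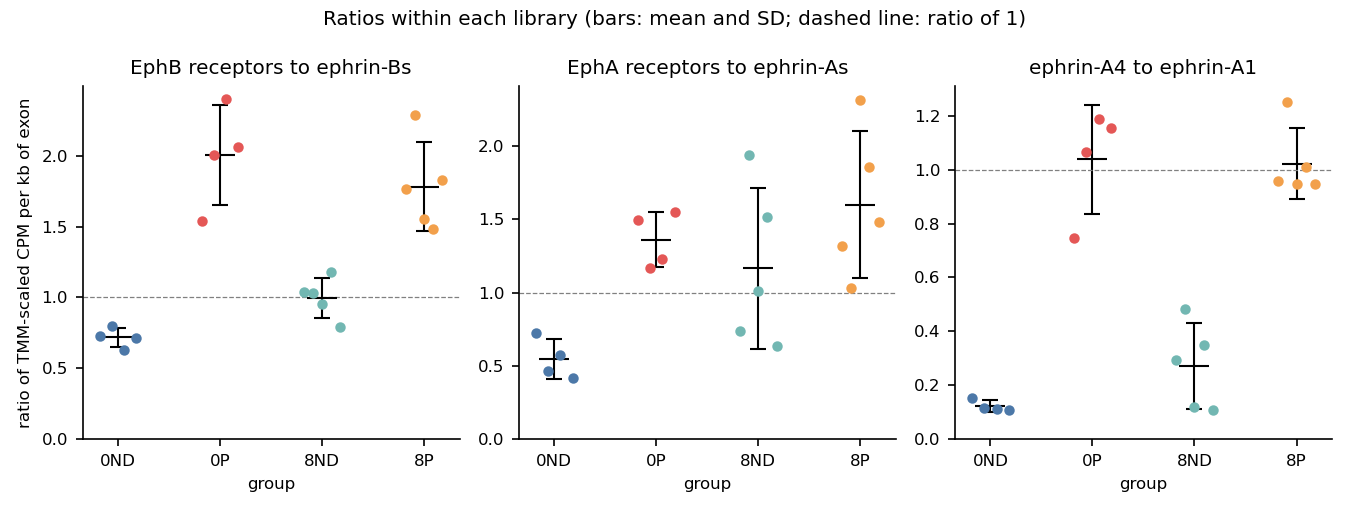
Ratios of summed TMM-scaled CPM per kb of exon (vertical axes, linear from 0) in the libraries of the 4 groups (horizontal axes), for EphB receptors over class B ephrins (left), EphA receptors over class A ephrins (middle) and Efna4 over Efna1 (right), with points for libraries, bars for mean and SD and a dashed line at 1. On the left, 0ND lies at 0.632 to 0.800 and 0P at 1.54 to 2.41, and in the middle the 8ND libraries spread from 0.634 to 1.94.

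The second question was what the FA dose changed within each tissue. In 8ND vs 0ND, 0 of the 10 genes passed (0.0481% of all genes did, 0.0289% higher and 0.0192% lower), and 4 had an unadjusted p under 0.05, as did 2059 of the 20787 genes tested. Epha2 had the smallest, with a 1.81-fold higher mean in 8ND, a log2 fold change of 0.85 ± 0.24 (SE, edgeR adjusted p = 0.157) and an unadjusted p of 0.00183. In the DESeq2 fit Epha2 was the single gene of the 10 that passed (adjusted p = 0.0394), and without 8ND 3 the edgeR adjusted p was 0.0808. Epha2 was among the genes the study singled out by a methylation difference and by expression in these same libraries, so its expression value is not independent evidence. The others were Ephb2 with a log2 fold change of 0.38 ± 0.14 (SE, edgeR adjusted p = 0.311), Efnb2 with −0.39 ± 0.13 (SE, edgeR adjusted p = 0.267) and Efna1 with −0.69 ± 0.25 (SE, edgeR adjusted p = 0.332). Ephb2 was the 1 gene whose groups did not overlap, as was the case for 3.94% of all genes.

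Values of the other 6 genes in 8ND vs 0ND lay between −0.16 for Efnb1 and 0.37 for Epha4 on the log2 scale. All 6 receptors had values above 0 and 3 of the 4 ephrins had values below 0, and the 0ND libraries of this comparison are also the controls of 0P vs 0ND, so those directions are not separate evidence. For Ephb4 the 95% interval was −0.21 to 0.32 and for Epha1 −0.22 to 0.43, which bounds a change in either direction at these sample sizes.

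In 8P vs 0P, 0 of the 10 genes and 0 of all genes passed in edgeR, where 2093 of all genes had an unadjusted p under 0.05, and DESeq2 called 20 genes, none of the 10. Ephb4 had the smallest unadjusted p, 0.0180, with a log2 fold change of −0.32 ± 0.12 (SE, edgeR adjusted p = 0.465), its mean being 79.9 ± 12.9 CPM in 8P and 99.96 ± 9.53 CPM in 0P. Epha2 had a log2 fold change of −0.45 ± 0.22 (SE, edgeR adjusted p = 0.498) and Epha4 one of 0.55 ± 0.30 (SE, edgeR adjusted p = 0.524). For Efnb2 the value was 0.03, with a 95% interval of −0.24 to 0.31. No pair of 8P and 0P ranges was free of overlap for any of the 10 genes, as against 2.25% of all genes.

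Whether dysplasia changed a gene by a different amount on the 2 diets was tested as the interaction. None of the 10 genes and 0 of all genes passed in edgeR, with 2163 of all genes and 3 of the 10 at an unadjusted p under 0.05, and DESeq2 called 82 genes. Epha2 came closest, with a rise in dysplasia that was smaller on 8 mg/kg FA by 1.31 on the log2 scale (SE 0.32, edgeR adjusted p = 0.251, DESeq2 adjusted p = 0.0342). Without 1 library the edgeR adjusted p of Epha2 was 0.112 to 0.507. Ephb4 had an interaction of −0.38 ± 0.18 (SE, edgeR adjusted p = 0.474) and Efnb2 one of 0.42 ± 0.18 (SE, edgeR adjusted p = 0.447). Hence the passing of Ephb3 and Ephb4 on 0 mg/kg FA only, and of Epha1 and Epha4 on 8 mg/kg FA only, does not show that these genes differed between the diets.

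**Figure D4:**
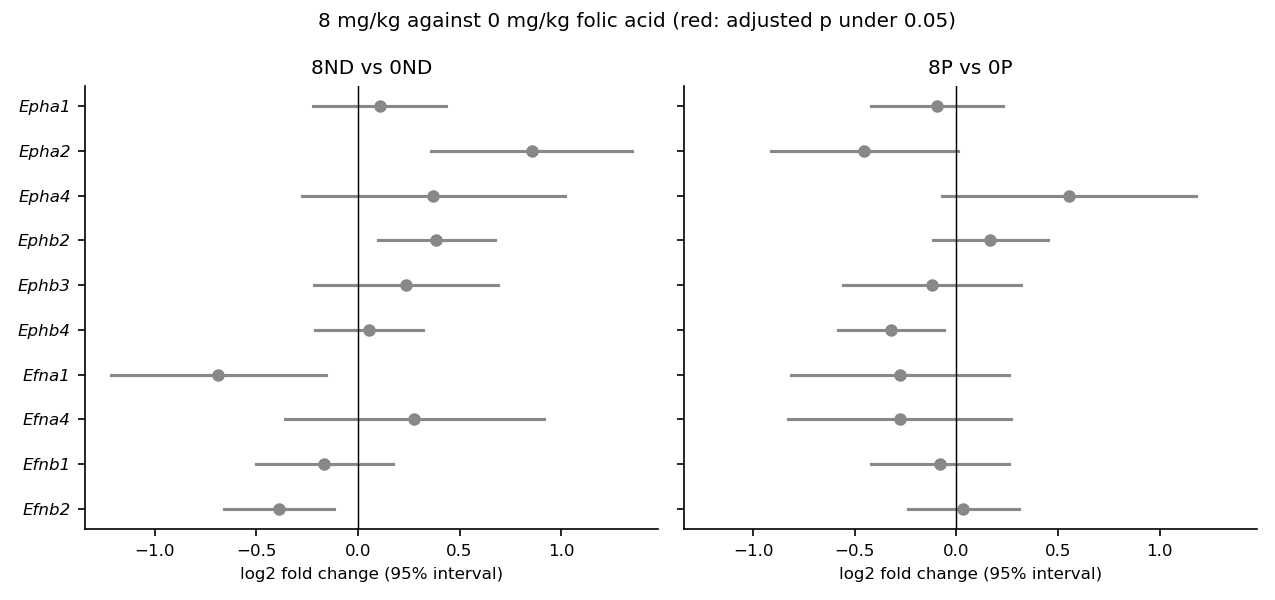
Log2 fold changes (horizontal axes) with 95% intervals of the 10 genes (vertical axis) for 8 mg/kg against 0 mg/kg FA in non-dysplastic epithelium (left, 8ND vs 0ND) and in polypoid dysplasia (right, 8P vs 0P); no gene is red, the color of an edgeR adjusted p under 0.05. Epha2 is farthest from 0 on the left (0.85) and Epha4 on the right (0.55).

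Of the 12 other Eph and ephrin genes, 8 passed the filter on low counts, of which 1 rose in 0P vs 0ND and 2 in 8P vs 8ND (15.9% and 13.9% of all genes rose), too few genes to read a share from. The largest log2 fold change of all 18 tested family genes was that of Ephb6 (chr6:41605482-41620509, plus strand), which encodes a receptor whose kinase is inactive. It had 1.53, 1.59, 1.54 and 0.541 CPM in 0ND and 21.4, 30.0, 49.1 and 50.5 CPM in 0P. On 8 mg/kg FA, CPM was 5.67, 4.60, 2.79, 4.80 and 2.88 in 8ND and 34.9, 32.3, 12.4, 28.0 and 17.5 in 8P. All dysplasia libraries were above both ND groups, and each 8ND library was above each 0ND library. Ephb6 rose with a log2 fold change of 4.85 ± 0.42 (SE, edgeR adjusted p = 7.14e-07) in 0P vs 0ND and of 2.61 ± 0.33 (SE, edgeR adjusted p = 2.26e-05) in 8P vs 8ND. In 8ND vs 0ND it had 1.65 ± 0.42 (SE, edgeR adjusted p = 0.130), where DESeq2 gave an adjusted p of 0.00641, and DESeq2 also called its interaction (0.00902), whereas edgeR gave 0.244.

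Epha7, another receptor of class A ephrins, had 4.33, 14.3, 6.16 and 2.92 CPM in 0ND and 6.34, 20.9, 10.8 and 22.8 in 0P. In 8ND it had 6.50, 5.15, 4.51, 6.41 and 4.21 CPM and in 8P 13.5, 8.93, 7.55, 23.7 and 24.1 CPM. The 8 mg/kg groups did not overlap, while 0ND 2 lay within the 0P range and 0P 1 and 0P 3 within the 0ND range. Epha7 rose in 8P vs 8ND, with a log2 fold change of 1.56 ± 0.44 (SE, edgeR adjusted p = 0.0136), and had 1.20 ± 0.49 (SE, edgeR adjusted p = 0.0707) in 0P vs 0ND, where it passed without 0ND 2 (0.00865) or 0P 1 (0.0254) and in DESeq2 (0.0348). The remaining 6 did not pass in either comparison. Epha5, the most abundant of them, had 29.9 ± 9.06 CPM in 0ND and 29.4 ± 8.73 in 0P (SD), and the other 5 had group means of 0.572 to 4.85 CPM.

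Of 30 listed adaptors and effectors of Eph signaling 29 were tested, with 5 higher and 4 lower in 0P vs 0ND (4 and 5 under upper-quartile scaling) and 5 higher and 5 lower in 8P vs 8ND (6 and 4 under upper-quartile scaling). These 9 and 10 genes of 29 are close to the share of all genes that passed (31.6% and 28.2%). The median log2 fold changes were −0.02 and 0.09, next to −0.03 and 0.00 for all genes. Adam10, the protease that sheds ephrins from the cell surface, rose from 149.9 ± 10.2 CPM in 0ND to 254 ± 21.7 in 0P, a log2 fold change of 0.76 ± 0.10 (SE, edgeR adjusted p = 2.23e-05). Adam10 also rose in 8P vs 8ND, by 0.68 ± 0.09 (SE, edgeR adjusted p = 3.57e-05) on the log2 scale. Tiam1, an exchange factor for Rac that binds EphA2 and ephrin-Bs, rose by 1.37 ± 0.16 (SE, edgeR adjusted p = 6.63e-06) and 0.65 ± 0.14 (SE, edgeR adjusted p = 0.00219) on the log2 scale. Ngef, which acts below EphA receptors, had −0.86 ± 0.17 (SE, edgeR adjusted p = 0.000681) and −0.59 ± 0.15 (SE, edgeR adjusted p = 0.00674).

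The Abl kinases, which bind Eph receptors, moved apart. Abl2 had log2 fold changes of 0.61 ± 0.12 (SE, edgeR adjusted p = 0.000700) in 0P vs 0ND and 0.34 ± 0.11 (SE, edgeR adjusted p = 0.0244) in 8P vs 8ND, the second lost without 8ND 5 (0.0769), 8P 1 (0.0732) or 8P 2 (0.0522). Abl1 had −0.35 ± 0.10 (SE, edgeR adjusted p = 0.0109) and −0.36 ± 0.09 (SE, edgeR adjusted p = 0.00499), and without the filter on low counts its adjusted p was 0.0903 and 0.0706. All effectors named here, those above included, were named after their values were seen. The others that passed in 0P vs 0ND were Vav2 and Chn1 (higher) and Itsn1 and Sipa1l1 (lower). In 8P vs 8ND they were Rasa1 and Yes1 (higher) and Itsn1, Kalrn and Inppl1 (lower).

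**Figure D5:**
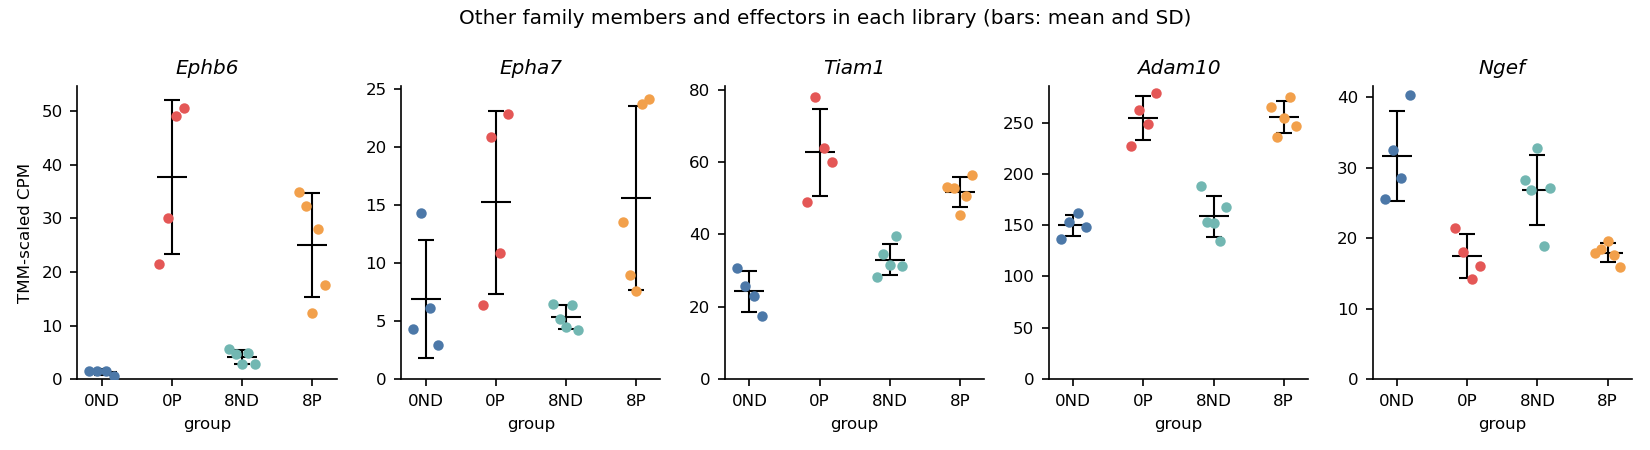
TMM-scaled CPM (vertical axes, linear from 0, each gene with its own scale) of Ephb6, Epha7, Tiam1, Adam10 and Ngef in the libraries of the 4 groups (horizontal axes), with points for libraries and bars for mean and SD. Ephb6 lies at 0.541 to 1.59 CPM in 0ND and at 21.4 to 50.5 CPM in 0P, Tiam1 and Adam10 are higher in both dysplasia groups, and Ngef is lower.

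Genes of the crypt axis gave the setting of these values, from gene lists chosen with earlier results of these data known. All 14 crypt base and Wnt target genes rose in both comparisons, where 15.9% and 13.9% of all genes rose. Their median log2 fold changes were 2.83 and 1.99, and their summed level was 369 to 493 CPM in 0ND and 2233 to 3403 CPM in 0P. Axin2, a feedback inhibitor of Wnt signaling, rose by 3.06 and 1.97 on the log2 scale (edgeR adjusted p = 4.70e-07 and 4.61e-06), against 0.61 and 0.39 for Ephb2 and 0.76 and 0.41 for Ephb3. The smallest rises among the 14 were 1.27 for Sox9 in 0P vs 0ND and 0.73 for Myc in 8P vs 8ND. Of 11 tested crypt top colonocyte genes, 9 fell in 0P vs 0ND and 10 in 8P vs 8ND, where 15.7% and 14.3% of all genes fell. Their median log2 fold changes were −2.50 and −2.23. Slc26a3, the chloride exchanger of surface colonocytes, had log2 fold changes of −4.27 and −3.99 (edgeR adjusted p = 6.98e-05 and 7.15e-05), against −0.88 and −0.80 for Efnb1. Among the 11, the value nearest 0 in 0P vs 0ND was −0.60 for Emp1 (edgeR adjusted p = 0.362). In 8P vs 8ND it was −1.14 for Car1 (edgeR adjusted p = 0.102). The part of these shifts along the crypt axis in the Eph and ephrin values was not tested.

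Among 11680 named genes with a mean of at least 5 CPM, those whose log2 CPM followed a member most closely over the 18 libraries were listed as a description, since the libraries share the split into dysplasia and non-dysplastic epithelium. For Epha2 they were Plk2 (Pearson's r = 0.953), Tnfrsf12a (0.942) and Slc4a11 (0.941). For Ephb2 they were Smim3 (0.936), Znrf1 (0.909) and Suv39h2 (0.909), and for Ephb3 Ptgfrn (0.890), Stat3 (0.888) and Grasp (0.878). Efnb2 was followed most closely by Selenop (0.933), Ugdh (0.932) and Fnip2 (0.930), of which Selenop had means of 695.7 CPM in 0ND, 132 CPM in 0P, 391 CPM in 8ND and 129.7 CPM in 8P.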

How the data were processed

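RNA-Seq libraries (18) were made by the authors from 40 ng of total RNA of formalin-fixed, laser-microdissected tissue with a stranded kit. The labels and the methods give Bowtie on mm10 as the aligner and HTSeq as the counter (versions and strand setting not given in the sources used here), and the deposited tables hold raw counts per gene name. Lines that name no gene were left out of totals and tests (22.0 to 40.7% of reads on no gene, 40.1 to 62.2% without a unique alignment and 0.220 to 0.384% ambiguous, per library). Since the strand setting is not given, reads on exon bases shared with a gene on the other strand cannot be assigned with certainty.

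The test was the robust quasi-likelihood test of edgeR 4.0.16 (R 4.3.3) after TMM scaling, on genes kept by filterByExpr at a minimum count of 10. A single model with 1 mean for each group held all 18 libraries. Benjamini-Hochberg adjustment ran over the 20787 tested genes (threshold 0.05), and SEs were derived from each gene's log2 fold change and F statistic. Alternatives were DESeq2 1.42.0, RLE and upper-quartile scaling, no filter, and fits on 2 groups. Others were a replicate block, and leaving out single libraries or both 8ND 1 and 8ND 2. The study itself used DESeq2 and, on a separate alignment, Cuffdiff. The code was tested on simulated counts. The labels do not say which replicates came from separate mice, so p-values measure the spread between these libraries.

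The members, gene lists and tests were chosen with earlier results of these data known. Named genes outside the 10 were up to 4 per list with the smallest p in each dysplasia comparison and up to 2 in 8ND vs 0ND, other family members averaging 1 CPM or more, and for Epha2, Ephb2, Ephb3 and Efnb2 the 3 genes with the highest Pearson's r on log2(CPM + 0.5). Promoters are from RefSeq (GRCm38.p6), where all 10 genes matched. Coordinates and exon lengths are from GENCODE M21 on mm10, whereas the paper names RefSeq as the gene set of its counts. Fibroblast, enteric and immune marker lists were also summed and are given in the closing section.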

Additional observations from a re-analysis of the deposited data

Results flagged for a closer look

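The groups of 4 or 5 libraries were screened for a lone low or high value of each of the 10 genes, which made 40 groups, of which chance marks about 1 in 20. A single value stood apart. Efnb2 had 60.4 CPM in 0P 3 and 77.7 to 80.3 CPM in the other 3 libraries of 0P, a gap of 0.873 of the range of the group. Without 0P 3, Efnb2 still fell in 0P vs 0ND (edgeR adjusted p = 0.000522). No gene had a difference between the diets that passed the interaction test in edgeR.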

How the results depend on the processing

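Of 860 results of the 10 genes under an alternative, 838 kept their side of the threshold, 18 lost a call and 4 gained one. No call changed direction, and 12 values that passed nowhere changed sign, which are counted among the 838. In 0P vs 0ND 7 to 9 of the 10 genes were called when 1 library was left out, and in 8P vs 8ND 5 to 8, with 5302 to 6606 and 4970 to 6415 of all genes called in the same fits. In 8ND vs 0ND, DESeq2 called 1 of the 10 and 316 genes in all, no filter gave 41 genes, leaving out both 8ND 1 and 8ND 2 gave 0, and leaving out 1 library gave 2 to 157 (157 without 8ND 3, 10 with all libraries). In 8P vs 0P, RLE scaling gave 2 genes, no filter 2, DESeq2 20 and leaving out 1 library 0 to 5. For the interaction, DESeq2 called 1 of the 10 and 82 genes in all, no filter 1 gene, and leaving out 1 library 0 to 26. The cause of these differences was not tested.

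Replicate numbers left the pairing of libraries unsettled. Between 0ND and 0P, correlations ran from −0.008 to 0.167 for same-numbered libraries and from −0.146 to 0.0756 for the others. Between 8ND and 8P they ran from −0.146 to 0.327 and from −0.309 to 0.287. Of these same-numbered correlations, 2 of 4 and 2 of 5 were over 0.1, and 3 of 4 0ND and 2 of 5 8ND libraries correlated best with their own number. With a replicate block the edgeR adjusted p of Efna1 in 8P vs 8ND was 0.0638, and that of Epha7 in 0P vs 0ND 0.0462. The block gave 28 genes in 8ND vs 0ND and 3 in 8P vs 0P. Each mouse had 1 diet, so a number shared across diets cannot mark the same mouse. Same-numbered correlations there were −0.298 to −0.0866 between 0ND and 8ND and −0.250 to 0.319 between 0P and 8P. Depth limits Efna4 most, with 88 to 450 counts per group.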

Other observations

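The 8ND libraries differed among themselves in the class A genes. Epha2 was highest in 8ND 2 (28.1 CPM) and 8ND 4 (21.4 CPM), the same libraries in which Efna1 was lowest (7.69 and 9.61 CPM) and Efnb1 was lowest (35.1 and 31.0 CPM), whereas 8ND 5 had 11.0 CPM of Epha2 and 20.5 CPM of Efna1. The ratio of Epha2 to Efna1 per kb was 0.327, 1.43, 0.353, 0.870 and 0.209 in 8ND replicates 1 to 5. Crypt base and Wnt target genes summed to 1124, 1249, 461, 795 and 675 CPM in the same order, and 8ND 4 was the shallowest library.

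Markers of other cell types also moved. The 6 fibroblast markers summed to 888 to 975 CPM in 0ND and 1347 to 1762 CPM in 0P, where 4 rose and 1 fell, and to 1129 to 1280 CPM in 8ND and 911 to 2167 CPM in 8P, where 1 rose. The 6 immune markers summed to 762 to 1671 CPM in 0ND, 444 to 553 in 0P, 1369 to 2584 in 8ND and 379.8 to 1024 in 8P, with 1 gene, Jchain of plasma cells, lower in both comparisons. Under RLE scaling and in DESeq2, 2 of the 6 rose and 1 fell in 0P vs 0ND. The 6 enteric glia and neuron markers summed to at most 24.9 CPM in any library. Their part in the Eph and ephrin values was not tested.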
